A study of Mus musculus with 6 samples.

Results

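Small nucleolar RNA (snoRNA) genes were followed in mouse cochlea, the snail-shaped organ of hearing, at postnatal day 7. Genes were selected on their FPKM, the number of sequenced fragments scaled by transcript length and library size. A gene was taken where the deposited table gave it the biotype snoRNA and 3 or more of the 6 libraries had an FPKM of 1 or more. This took 67 of the 222 snoRNA rows of a table of 30462 genes. The selection used levels and not the difference between the groups, but 3 genes met it through 1 group alone and so had to differ to be included (Snord53 through KO, Gm26236 and Snord93 through WT). Gm23966, which the rule leaves out by name, carries the biotype snRNA in the table and was not among the 222.

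KO was labelled as a knockout of Neu4, a gene for a sialidase, an enzyme that cuts sialic acids off sugar chains, and comprised replicates 2, 4 and 5. Wild type (WT) comprised replicates 3, 4 and 5. All 6 libraries were cochlea at postnatal day 7, made from total RNA. The sources used here do not give the strain, the design of the allele or the animals behind a library, so the p-values measure only the spread between these libraries, which may be technical. The comparison asked which snoRNA genes differed in level between KO and WT cochlea.

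SnoRNAs guide chemical modification of other RNAs, chiefly ribosomal RNA. Box C/D snoRNAs, named for their C and D motifs near the ends, direct ribose methylation by fibrillarin. H/ACA snoRNAs end in an ACA motif and direct the conversion of uridine to pseudouridine by dyskerin. Most mammalian snoRNAs lie in introns of host genes, often genes of ribosomal proteins or translation factors, and are trimmed from the excised intron. They also lack a poly(A) tail.

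The sequences that carry the comparison were read from the GENCODE M21 transcripts (GRCm38), 5′ to 3′ on the gene's own strand. They are the snoRNA gene with the highest level, well-covered genes of both classes, the genes with the largest positive and negative fold changes, and 2 pairs of copies that share a host. Capitals mark the C motif (TGATG within the first 30 bases) and the D motif (CTGA within the last 25 bases), or the ACA motif (within the last 9 bases). Only the given strand was searched, a gene with both C and D motifs was not counted under ACA, and the windows were chosen after the sequences were seen. Snord53 has no capitals because CTGA was not in its window.
Snord104 (chr11:106500993-106501062, plus strand): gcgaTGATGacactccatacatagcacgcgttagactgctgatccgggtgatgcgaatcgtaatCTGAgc
Gm24494 (chr3:153911610-153911690, minus strand, intron of Rabggtb): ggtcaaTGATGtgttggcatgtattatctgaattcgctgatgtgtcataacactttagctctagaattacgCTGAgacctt
Snora17 (chr2:26639190-26639321, minus strand): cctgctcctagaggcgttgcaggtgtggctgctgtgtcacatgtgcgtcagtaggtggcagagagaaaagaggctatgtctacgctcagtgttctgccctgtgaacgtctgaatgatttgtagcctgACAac
Snora31 (chr14:75847905-75848034, plus strand, intron of Tpt1): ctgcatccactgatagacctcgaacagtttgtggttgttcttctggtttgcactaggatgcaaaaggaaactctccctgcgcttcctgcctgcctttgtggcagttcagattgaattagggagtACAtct
Snord53 (chr17:71640879-71640956, plus strand, intron of Wdr43): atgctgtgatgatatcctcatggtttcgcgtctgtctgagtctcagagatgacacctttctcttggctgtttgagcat
Gm25612 (chr1:134505338-134505463, plus strand, intron of Rabif): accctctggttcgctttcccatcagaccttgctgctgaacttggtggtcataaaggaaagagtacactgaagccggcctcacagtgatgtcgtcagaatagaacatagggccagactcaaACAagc
Gm25632 and Gm22192 (chr2:32225653-32225737 and chr2:32221970-32222054, plus strand, introns of Prrc2b): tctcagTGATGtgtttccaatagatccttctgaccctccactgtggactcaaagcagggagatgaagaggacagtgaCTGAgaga
Gm22270 (chr5:107905177-107905308, plus strand, intron of Rpl5): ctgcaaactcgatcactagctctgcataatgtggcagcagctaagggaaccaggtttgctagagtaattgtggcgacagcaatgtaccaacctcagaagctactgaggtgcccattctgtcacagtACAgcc
Gm26387 (chr5:107907345-107907476, plus strand, intron of Rpl5): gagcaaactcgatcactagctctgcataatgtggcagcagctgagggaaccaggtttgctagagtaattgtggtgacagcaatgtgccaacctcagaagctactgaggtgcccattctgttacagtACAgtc

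By these motifs, 31 of the 67 genes had C and D motifs (median length 77 bases), 23 had an ACA motif (median length 132 bases) and 13 had neither. C and D motifs together were in 46.3% of the 67 genes, in 26.6% of all snoRNA rows of the table and in 24.3% of the 1507 snoRNA genes of the annotation. The ACA class made up 34.3%, 45.5% and 45.5% of the same sets. The level rule itself needs fewer fragments of a shorter gene. An FPKM of 1 corresponded to 1.06 to 1.20 fragments at 70 bases and to 1.97 to 2.235 fragments at 130 bases. The part of length in these shares was not tested. Of 16 genes with C/D names (Snord or Rnu73), 14 fell in the C/D class. Snord53 and Snord93 were the other 2, and a missing motif says only that these letters are not in these windows. All 3 genes named Snora (Snora17, Snora31 and Snora41) fell in the ACA class.

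A whole-table description bears on all values below. Neu4 itself was at 0.05, 0.10 and 0.09 FPKM in KO and 0.05, 0.10 and 0.08 FPKM in WT, 4 to 8 fragments a library, so its RNA did not check the labels. Libraries held 15170973 to 16925430 fragments in KO and 15983477 to 17192293 in WT. The X-inactivation RNA Xist was at 0.01, 24.6 and 28.2 FPKM in KO and 0, 0 and 9.23 FPKM in WT, and the Y-linked Ddx3y was at 0 in just those 3 libraries with Xist, so that the sexes were unequally spread over the groups. Hair cell markers summed to 18.5 to 21.1 FPKM in KO and 17.4 to 18.9 FPKM in WT, with 4 of 5 at 1 FPKM or more in every library (Slc26a5 was at or below 0.21). Markers of the stria vascularis summed to 25.5 to 28.5 FPKM in KO and 19.5 to 21.03 FPKM in WT. Those of supporting cells summed to 98.2 to 111 FPKM in KO and 87.9 to 94.0 FPKM in WT. Both sums were without overlap, but Bsnd of the stria overlapped. Gjb2 and Gjb6 made up most of the supporting cell sum. Sox2 went the other way, at 6.89, 8.19 and 7.98 FPKM in KO and 9.13, 11.1 and 8.21 FPKM in WT. The sums of tectorial membrane markers (143 to 172 FPKM in KO, 137 to 146 FPKM in WT) overlapped. So did those of spiral ganglion markers (72.1 to 92.8 FPKM in KO, 54.2 to 83.7 FPKM in WT). Markers of other tissue were detected too. The 4 markers of middle ear epithelium, of which 1 (Ltf) reached 1 FPKM in every library, summed to 10.8 to 101 FPKM in KO and 383 to 729 FPKM in WT, the 5 of skeletal muscle to 22.3 to 199 FPKM in KO and 108 to 493 FPKM in WT, and the 4 of bone marrow to 50.1 to 96.3 FPKM in KO and 16.7 to 43.4 FPKM in WT. Bpifa1, at 0.078, 8.34 and 93.3 FPKM in KO and 336, 608 and 402 FPKM in WT, made up most of the middle ear sum in WT. Ltf overlapped, at 10.4, 12.2 and 7.57 FPKM in KO and 13.4, 23.1 and 4.08 FPKM in WT. It made up most of the sum in KO 2 and KO 4. S100a8 and S100a9 made up most of the bone marrow sum, and the other markers of that list overlapped. Mpo was at 1.77, 1.54 and 0.404 FPKM in KO and 0.831, 0.985 and 0.658 FPKM in WT. Elane was at 2.26, 1.74 and 0.201 FPKM in KO and 0.431, 0.887 and 0.191 FPKM in WT. The part of these tissues and cell types in the snoRNA values was not tested, and in bulk tissue fewer cells of a type and less RNA per cell cannot be told apart.

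No snoRNA gene passed the test between KO and WT. With limma on log2(FPKM + 1) and Benjamini-Hochberg adjustment over all 14072 genes at that level, 0 of 67 had an adjusted p under 0.05, where 0.334% of all genes tested were called. At an unadjusted p under 0.05, 6 of the 67 (8.96%) passed, 2 higher and 4 lower in KO, against 17.6% of all genes. limma's voom method, run on fragment counts, also called 0 of 67, with 2.83% of genes called in all. The median log2 fold change was 0.04 over the 67 genes, with 38 higher and 29 lower, and 0.02 over all genes tested, of which 56.9% were higher. For 62 of the 67 genes the values of KO and WT overlapped. All KO libraries lay above all WT libraries in 2 genes, against 15.2% of all genes tested, and below them in 3 genes, against 9.54%. Together these were 7.46% of the snoRNA genes, against 24.8% of all genes. Snord53, Gm26236 and Snord93 are among them, and also among the 6 with an unadjusted p under 0.05. These 3 met the level rule through 1 group alone, so their lack of overlap was fixed by the rule.

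These genes are short, and their values rest on few fragments. Lengths ran from 65 to 246 bases with a median of 94. At 70 bases, an FPKM of 1 corresponded to 1.06 to 1.18 fragments in KO and 1.12 to 1.20 fragments in WT. The median gene held 5 fragments per library. Of the 67 genes, 33 had a mean under 5 fragments, 18 had a mean of at least 10, and 17 were at 0 in at least 1 library. At 32 genes the FPKM reached 1 in all 6 libraries, at 12 in 5, at 9 in 4 and at 14 in exactly 3. Whether a fragment came from a mature snoRNA or from an unspliced host transcript cannot be told apart in this table.

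Values beside the threshold were as follows. Just inside it were Gm22516, Gm23442 and Gm22771, with 1.06, 1.30 and 1.32 FPKM in the third highest library. Just outside were Gm22661, Gm25129 and Snora69, at 0.999, 0.991 and 0.955 FPKM. Gm22661 held 4, 2 and 2 fragments in KO and 2, 2 and 3 in WT, while Gm22516 held 1, 4 and 2 in KO and 1, 0 and 3 in WT. In both genes the third highest library was KO 5, with 2 fragments, and the genes are 124 bases (Gm22516) and 132 bases (Gm22661) long.

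Snord104, whose human counterpart guides ribose methylation of large-subunit ribosomal RNA, had the highest level of the 67 genes in every library. It was at 53.2, 52.3 and 49.9 FPKM in KO and 35.5, 45.7 and 39.3 FPKM in WT. Means were 51.8 ± 1.69 FPKM in KO and 40.2 ± 5.16 FPKM in WT (SD, n = 3 each). All KO values lay above all WT values. These levels rested on 62, 62 and 53 fragments in KO and 41, 55 and 44 in WT. The log2 fold change of 0.37 (SE 0.0864, 95% interval 0.16 to 0.57) did not pass adjustment in limma (adjusted p = 0.128). Pooled within the groups, 177 fragments in KO and 140 in WT gave a ratio of rates of 1.29 (95% interval 1.03 to 1.62, exact conditional binomial). Such intervals cover counting error only. No host row of the table contained Snord104, and RefSeq places it in the gene Gm36220.

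**Figure D1:**
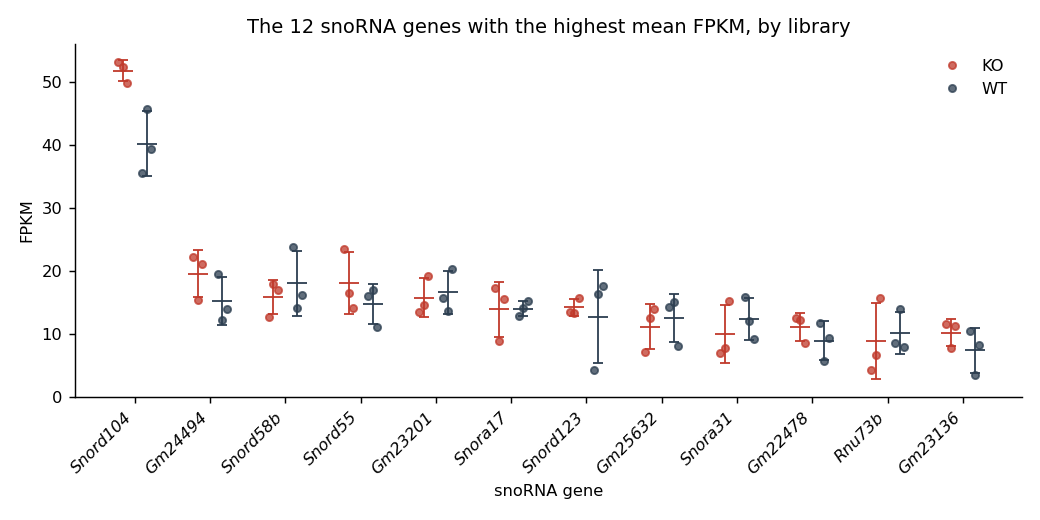
FPKM in each library (points) of the 12 snoRNA genes with the highest mean, KO in red and WT in dark blue, with the group mean and SD (bars, n = 3). Snord104 sits at 49.9 to 53.2 FPKM in KO and 35.5 to 45.7 FPKM in WT, above every other gene, while the groups overlap in each of the other 11.

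Below Snord104 the order of levels was not resolved between neighbours. The next 11 genes by mean ran from 17.4 FPKM for Gm24494 to 8.79 FPKM for Gm23136, and the values of neighbours in this order overlapped. The ends of this range were apart, with every value of Gm24494 above every value of Gm23136 (3.53 to 11.5 FPKM). Gm24494, a C/D gene in an intron of Rabggtb, a subunit of the enzyme that prenylates Rab proteins, had 22.2, 15.3 and 21.2 FPKM in KO and 19.4, 12.2 and 13.9 FPKM in WT. The groups overlapped (log2 fold change 0.35, SE 0.187, limma adjusted p = 0.37). Snord55, a methylation guide, had 23.6, 16.5 and 14.2 FPKM in KO and 16.1, 16.9 and 11.1 FPKM in WT. KO 2 was the highest value, and KO 5 lay below 2 of the WT libraries. Gm23201, which lies in an exon of the non-coding RNA Zfas1, had 13.5, 14.6 and 19.3 FPKM in KO and 15.7, 13.7 and 20.4 FPKM in WT, with replicate 5 the highest in both groups. Snord123, in an intron of the non-coding host Snhg18, had 13.5, 13.3 and 15.8 FPKM in KO and 4.27, 16.4 and 17.6 FPKM in WT. WT 3 alone was low, with 5 fragments against 16 to 20 in every other library. Gm25632, a C/D gene of Prrc2b, had 7.06, 12.5 and 13.96 FPKM in KO and 14.3, 15.1 and 8.10 FPKM in WT, with KO 2 and WT 5 the low libraries.

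Among ACA genes, Snora17 and Snora31 had the most fragments. Snora17, which RefSeq places in the non-coding gene Snhg7, had 17.3, 8.95 and 15.5 FPKM in KO and 12.8, 14.1 and 15.2 FPKM in WT. Only KO 4 stood low, with 20 fragments against 28 to 38 in the other libraries. Snora31 lies in an intron of Tpt1, the gene of translationally controlled tumour protein, and had 6.93, 7.73 and 15.2 FPKM in KO and 15.8, 12.1 and 9.14 FPKM in WT. KO 2 and KO 4 were below every WT library and KO 5 was not (log2 fold change -0.33, SE 0.290, limma adjusted p = 0.587). Gm22270, an ACA gene of Rpl5, had 5.46, 5.37 and 8.99 FPKM in KO and 9.18, 9.69 and 7.58 FPKM in WT (log2 fold change -0.40, SE 0.179, adjusted p = 0.312).

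Of the remaining genes with many fragments, Gm22478 had neither motif pair and 154 bases. It lies opposite to Snrnp70, a gene of the spliceosome, and had 12.5, 12.3 and 8.56 FPKM in KO and 11.8, 5.67 and 9.34 FPKM in WT. The sources used here do not say whether counting used strand, so its fragments and those of Snrnp70 cannot be told apart. AF357399, in an intron of Rps16, had 4.32, 8.98 and 8.44 FPKM in KO and 7.75, 5.58 and 8.01 FPKM in WT. Gm25835, in an intron of the translation initiation factor gene Eif4a1, had 5.84, 7.39 and 3.20 FPKM in KO and 6.73, 3.64 and 1.30 FPKM in WT, and with Gm23136 it had the highest fold changes among genes with at least 10 fragments. Gm23136, in an intron of Rpl4, had 11.5, 7.76 and 11.3 FPKM in KO and 10.4, 3.53 and 8.22 FPKM in WT. Their log2 fold changes were 0.52 (SE 0.439) and 0.50 (SE 0.328), and in both genes a WT library exceeded a KO library. Gm25835 was at 0.056 without WT 5 and 0.93 without WT 3, and Gm23136 was at 0.11 without WT 4 and 0.78 without WT 3. Rnu73b, the U73 methylation guide in an intron of Rps3a1, had 4.23, 6.66 and 15.8 FPKM in KO and 8.53, 13.9 and 7.93 FPKM in WT, so that KO 5 was the highest and KO 2 the lowest value.

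The genes other than Snord104 whose groups did not overlap had few fragments and were picked out after their values were seen. Snord53, an intronic snoRNA of the ribosome biogenesis gene Wdr43, had 3.08, 2.27 and 5.07 FPKM in KO and 0, 0.746 and 0.802 FPKM in WT. Every KO value lay above every WT value. The fragments behind them were 4, 3 and 6 in KO and 0, 1 and 1 in WT, 13 against 2 in all, a ratio of rates of 6.62 with a 95% interval of 1.4995 to 60.5. Its log2 fold change of 1.56 (SE 0.292) had the lowest adjusted p of the 67 genes, 0.0899 in limma. Snord53 entered through KO alone and so had to be higher in KO to be included. Its separation, ratio and p are therefore no independent evidence of a difference. Wdr43 also holds Gm22858, a C/D gene, which had 3.16, 3.11 and 4.34 FPKM in KO and 5.58, 3.06 and 0.823 FPKM in WT. Gm22858 overlapped between the groups, as did Wdr43 itself (10.9 to 12.4 FPKM in KO and 10.1 to 11.3 FPKM in WT).

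KO lay below WT without overlap in Gm25612, Gm26236 and Snord93. Gm25612, an ACA gene in an intron of Rabif, a Rab-interacting factor, had 0.476, 0.469 and 2.09 FPKM in KO and 3.85, 4.62 and 2.48 FPKM in WT. The groups were separate, on 1, 1 and 4 fragments in KO and 8, 10 and 5 in WT (log2 fold change -1.27, SE 0.313, limma adjusted p = 0.131). Without KO 5 it was the sole snoRNA gene to pass (log2 fold change -1.63, limma adjusted p = 0.0307), and over the alternatives that left out 1 library its adjusted p ran up to 0.301. Gm26236, an ACA gene in an intron of Eng, which encodes the co-receptor endoglin, held 2, 2 and 0 fragments in KO and 3, 4 and 3 in WT. Snord93, in the non-coding host 2700038G22Rik, held 0, 1 and 1 in KO and 2, 2 and 2 in WT. For both the groups differ by single fragments, and both entered through WT alone.

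**Figure D2:**
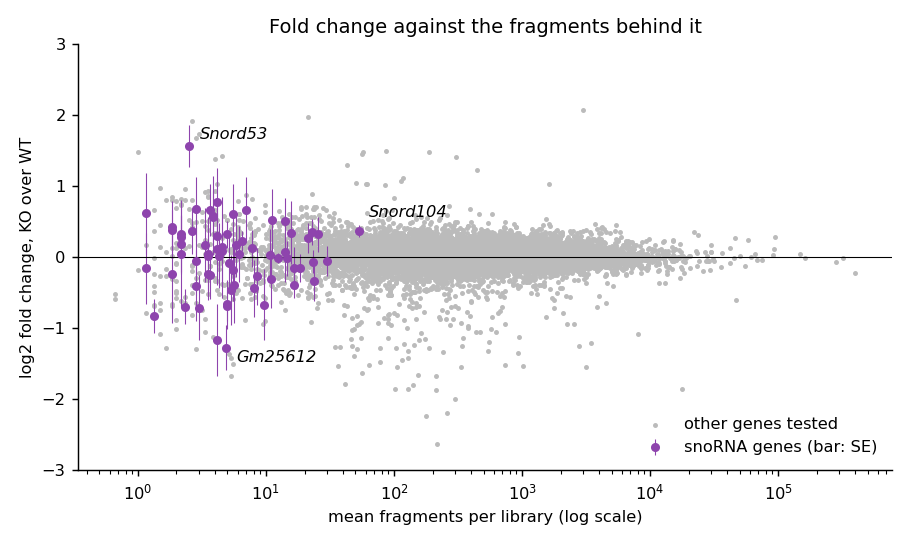
Log2 fold change, KO over WT, against the mean number of fragments per library on a log scale, for the 67 snoRNA genes (purple, bars show SE) and other genes tested with whole fragment counts (grey, of which 1 lies beyond the axis). The snoRNA genes lie at the left, at 1.17 to 52.8 fragments, and spread from -1.27 to 1.56.

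Summed over all 67 genes, snoRNA levels overlapped between KO and WT. The sum was 358, 348 and 388 FPKM in KO and 361, 337 and 344 FPKM in WT. It rested on 563, 557 and 559 fragments in KO and 579, 553 and 534 in WT. The mean difference of 17.7 FPKM, KO minus WT, was close to the SD between libraries of a group (20.6 in KO and 12.6 in WT), and without KO 5 it was 6.10 FPKM. Snord104 alone held 11.01%, 11.1% and 9.48% of the fragments in KO and 7.08%, 9.95% and 8.24% in WT. The other 66 genes summed to 305, 296 and 338 FPKM in KO and 326, 291 and 304 FPKM in WT, again overlapping.

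Whether the groups overlapped in the sum of a motif class turned on single genes. The 31 C/D genes summed to 241, 236 and 254 FPKM in KO and 222, 216 and 210 FPKM in WT, so that the groups did not overlap. Without Snord104 the sums were 188, 183 and 204 FPKM in KO and 186.5, 170 and 171 FPKM in WT, and KO 4 lay below WT 3. Of the C/D genes 21 had a fold change above 0 and 10 below (median log2 fold change 0.17). The 23 ACA genes summed to 83.0, 71.0 and 93.9 FPKM in KO and 94.4, 95.2 and 96.1 FPKM in WT. These did not overlap, but the sums include Gm26236, which had to be higher in WT to be included. Without it the other 22 ACA genes summed to 82.1, 70.1 and 93.9 FPKM in KO and 93.1, 93.5 and 94.7 FPKM in WT, and KO 5 lay above WT 3 and WT 4. The difference of means over the 23 genes was -12.6 FPKM, -6.75 FPKM without KO 4 and -11.7 FPKM without Gm26236. Of the ACA genes 10 were above 0 and 13 below (median -0.06). The 13 genes with neither motif summed to 33.7, 41.7 and 40.3 FPKM in KO and 44.6, 25.4 and 37.5 FPKM in WT. The classes were described and not tested, since a score over the members gets no p here.

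**Figure D3:**
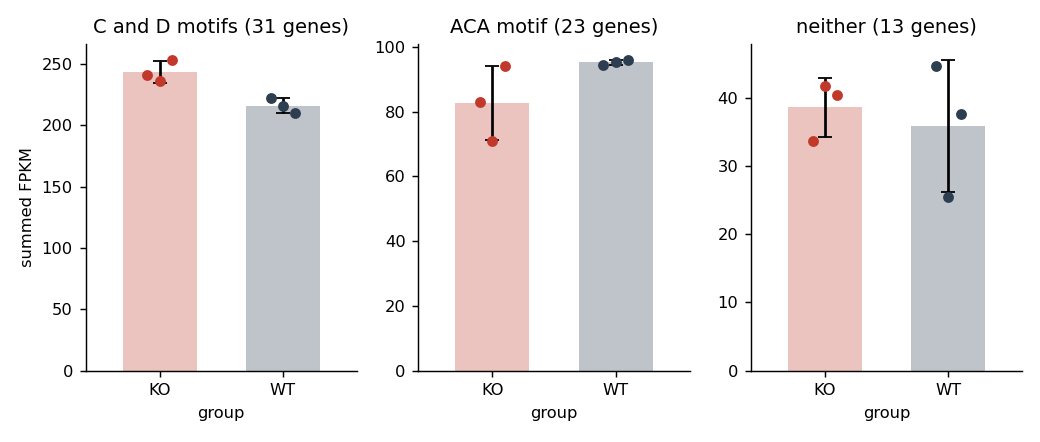
Summed FPKM per library (points) of the genes with C and D motifs, with an ACA motif and with neither, for KO (left) and WT (right) in each panel, with the group mean (bar) and SD (whisker, n = 3). The C/D sums are 236 to 254 in KO and 210 to 222 in WT, and the ACA sums are 71.0 to 93.9 in KO and 94.4 to 96.1 in WT.

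Of the 67 genes, 56 lay within a row of the table on their own strand, their host. There were 45 hosts, 40 of them protein-coding. Of these 56 snoRNA genes, 54 were in introns, at a median of 181 bases (23 to 6733) from the nearest host exon. Gm23201 lay in an exon, and Snord42b, in Rpl23a, crossed an exon edge. Ribosomal protein genes made up 11 hosts and held 16 snoRNA genes, and 5 non-coding hosts held 5. For 8 snoRNA genes only a gene on the other strand overlapped them, and for Snord104, Snora17 and Gm24166 none did in the table.

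SnoRNA genes of ribosomal protein hosts summed to 99.4, 107 and 119 FPKM in KO and 114.5, 93.5 and 105 FPKM in WT. Those of other protein-coding hosts summed to 116, 108 and 118 FPKM in KO and 123, 106 and 99.97 FPKM in WT. The 5 in non-coding hosts summed to 31.7, 40.4 and 51.7 FPKM in KO and 29.7, 43.5 and 49.6 FPKM in WT. The groups overlapped in each of these 3 classes. The 11 genes with no host on their strand summed to 111, 92.6 and 99.2 FPKM in KO and 93.9, 93.8 and 89.3 FPKM in WT, with KO 4 below 2 of the WT libraries.

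SnoRNA genes stood below their hosts per length in 51 of 56 cases. The median ratio of host to snoRNA FPKM was 15.0. How fully the libraries captured short RNAs without a poly(A) tail was not tested, so this ratio need not be that of the RNAs in the tissue. Across the 56 genes, Spearman's rho between the mean FPKM of host and snoRNA was 0.441, a description over points that share libraries and, for some, a host. In the ribosomal protein host Rps3a1, at 711 to 802 FPKM in KO and 699 to 758 FPKM in WT, Rnu73b and Snord73a together reached 9.52, 10.1 and 22.6 FPKM in KO and 12.1, 18.2 and 11.6 FPKM in WT. By contrast Gm24494 stood level with Rabggtb, which had 15.5, 16.4 and 18.8 FPKM in KO and 16.3, 16.7 and 17.5 FPKM in WT.

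**Figure D4:**
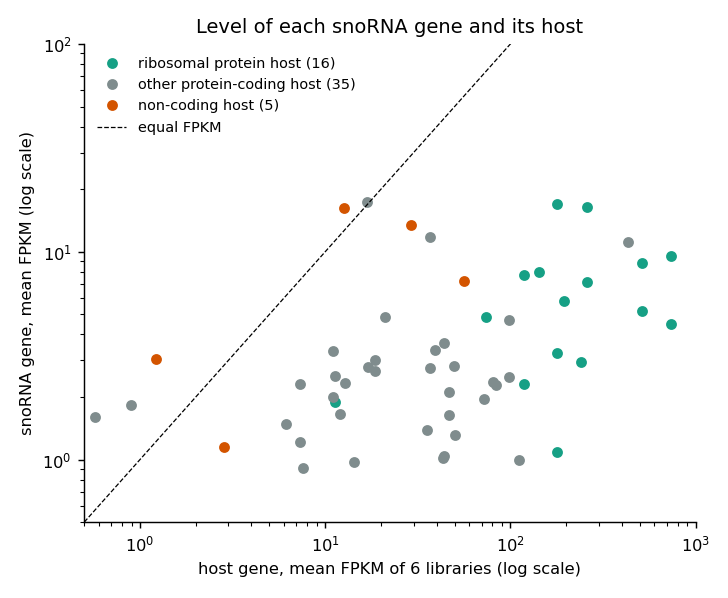
Mean FPKM over the 6 libraries of each of 56 snoRNA genes against that of its host, both on log scales, with ribosomal protein hosts in green, other protein-coding hosts in grey, non-coding hosts in orange and the line of equal FPKM dashed. Of the points, 51 lie below the line and 5 above it.

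The hosts themselves were measured far more precisely, and 0 of 44 tested passed in limma, where 0.334% of all genes tested were called. Of the hosts, 26 were higher and 18 lower (median log2 fold change 0.0047). At an unadjusted p under 0.05 in limma there were 8 of the 44, against 17.6% of all genes tested. voom also called none of the 43 hosts it tested. Their fold changes ran from -0.19 to 0.35, and the 95% interval lay between -1 and 1 for all 44. The 3 with the highest level were Rps3a1, Rpl4 and Tpt1. Rpl4, a protein of the large ribosomal subunit, had 509, 500.4 and 536 FPKM in KO and 508, 496 and 537 FPKM in WT. Tpt1 had 416, 422 and 443 FPKM in KO and 435, 417 and 445 FPKM in WT. The 11 ribosomal protein hosts lay between -0.04 and 0.09 in log2 fold change, 8 above 0 and 3 below. The lowest adjusted p among hosts was 0.128, for Mertk, a receptor tyrosine kinase that serves the uptake of dead cells, with 12.5, 12.8 and 14.1 FPKM in KO and 11.1, 11.2 and 10.5 FPKM in WT. Its snoRNA gene Gm23172 held 0, 6 and 6 fragments in KO and 2, 4 and 2 in WT.

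Rpl17, a ribosomal protein gene of chromosome 18, held 3 of the genes, all C/D. Snord58b, a methylation guide, had 12.7, 17.9 and 16.98 FPKM in KO and 23.9, 14.1 and 16.1 FPKM in WT. Gm23301 had 2.77, 5.45 and 2.03 FPKM in KO and 2.80, 2.68 and 3.85 FPKM in WT, and Gm26202 1.85, 0 and 1.01 FPKM in KO and 1.86, 1.79 and 0 FPKM in WT. All 3 overlapped between KO and WT. Together they held 65 fragments in KO and 73 in WT (ratio of rates 0.907, 95% interval 0.639 to 1.29), while Rpl17 was at 172.5 to 193 FPKM in KO and 170 to 182 FPKM in WT. Snord58b was above both other genes in every library.

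Some hosts held 2 copies of one snoRNA, whose fragments cannot be assigned to either copy with certainty. Gm22270 and Gm26387 of Rpl5 share 125 of 132 bases and had an overlapping level each, Gm26387 with 2.27, 0.895 and 1.4981 FPKM in KO and 3.67, 2.20 and 3.32 FPKM in WT. The pair together had 7.73, 6.27 and 10.5 FPKM in KO and 12.8, 11.9 and 10.9 FPKM in WT. They held 52 fragments in KO and 78 in WT (ratio of rates 0.679, 95% interval 0.469 to 0.977). This interval covers counting error only, and the pair was pooled after the values of the single copies were known. Rpl5 overlapped, at 116 to 124 FPKM in KO and 115 to 123 FPKM in WT.

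The sums overlapped in 8 of the 10 hosts with 2 or more genes. In the other 2, Rpl5 among them, all KO sums lay below all WT sums. Of all single genes tested, 24.8% did not overlap, and 9.54% had KO below WT. Gm25632 and Gm22192 of Prrc2b, identical over 85 bases, together had 9.18, 15.99 and 18.6 FPKM in KO and 16.4, 18.5 and 8.83 FPKM in WT. Gm25788 and Gm22154 of Pabpc4, which share 127 of 131 bases, had 3.21, 3.61 and 3.52 FPKM in KO and 0.925, 2.22 and 9.07 FPKM in WT. The 3 KO values lay close together and the WT values on both sides of them. The sums were examined after the values of single copies were known, and none was tested.

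On the log2(FPKM + 1) scale the spread within a group was wider for snoRNA genes than for other genes of like FPKM. At a mean of 2 to 5 FPKM, the median within-group SD of log2(FPKM + 1) was 0.678 for 29 snoRNA genes, on a median of 4.83 fragments, and 0.101 for 3073 protein-coding genes, on 264 fragments. At 10 to 25 FPKM it was 0.341 for 9 snoRNA genes and 0.0704 for 2866 protein-coding genes. Set against genes of like fragment number, the SD at 10 to 25 fragments was 0.466 for 15 snoRNA genes and 0.281 for 72 protein-coding genes, on medians of 15.7 and 20 fragments. At 5 to 10 fragments it was 0.650 for 16 snoRNA genes and 0.188 for 3 protein-coding genes, and at 25 to 60 fragments 0.341 for 3 snoRNA genes and 0.180 for 380 protein-coding genes. The protein-coding genes in these bands are longer and so lower in FPKM, where this scale shrinks differences. Over all 67 genes the median SD was 0.625, where counting error alone gives 0.491, and 50 genes were above their own counting value. The variance of fragment counts within groups was 1.64 times that of pure counting at the median for snoRNA genes, and 2.61 times for protein-coding genes. At 10 to 25 fragments it was 1.62 times for snoRNA genes and 2.06 times for protein-coding genes. Gm27326, in an intron of Rpl23, varied least relative to counting, with 13, 13 and 11 fragments in KO and 13, 12 and 13 in WT.

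**Figure D5:**
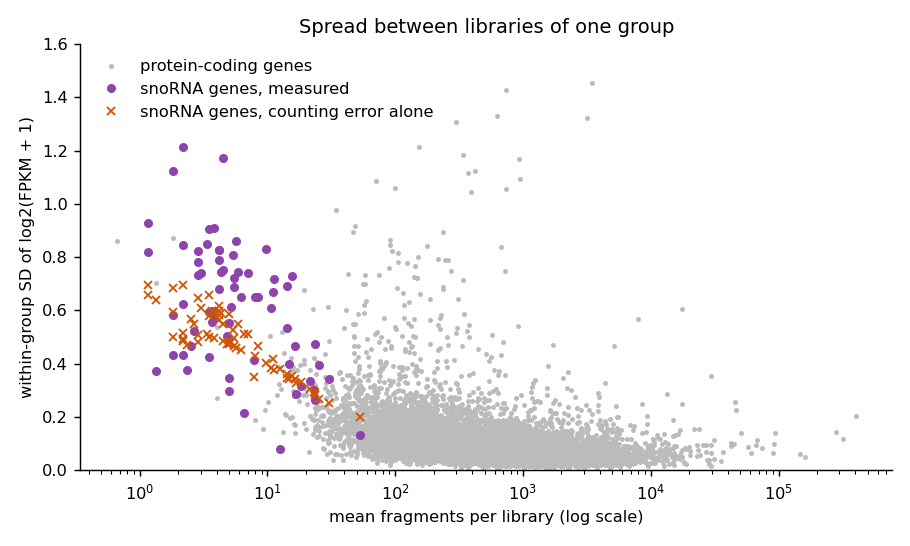
Within-group SD of log2(FPKM + 1) against the mean number of fragments per library on a log scale, for snoRNA genes as measured (purple), for the same genes under counting error alone (orange crosses) and for protein-coding genes (grey, of which 3 lie above the axis). Of the 67 snoRNA genes, 50 lie above their own counting value.

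The fold changes of the snoRNA genes were less precise than those of other genes. The median SE of a log2 fold change was 0.390 for the snoRNA genes, 0.0568 for their hosts and 0.0763 for all genes tested. The 95% interval lay between -1 and 1 for 19 of the 67 genes (28.4%) and for 96.8% of all genes tested. Among the 18 genes with at least 10 fragments, the interval lay between -1 and 1 for 12.

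KO 5 had the highest summed snoRNA level, 388 FPKM against 337 to 361 FPKM in the other libraries. Genes at 0 numbered 2, 2 and 5 in KO and 3, 7 and 4 in WT, and 18, 18 and 20 genes in KO and 19, 19 and 20 in WT held at least 10 fragments. The median distance of a gene from the mean of the other libraries of its group was 0.513, 0.514 and 0.511 on the log2 scale in KO and 0.419, 0.487 and 0.510 in WT. Other RNAs without a poly(A) tail were looked for by name. Rmrp, Terc and Rn7sl1 had no row in the table, and Rpph1 had a value in KO 5 alone, at 0.62 FPKM. Rn7sk, the RNA that holds the elongation factor P-TEFb inactive, had 1.63, 2.68 and 2.19 FPKM in KO and 1.10, 2.64 and 3.02 FPKM in WT. Rows of the biotype rRNA took 0.278% to 0.326% of fragments in KO and 0.245% to 0.696% in WT. Replication histone genes, whose mRNAs mostly lack the tail, took 0.0151% to 0.0165% in KO and 0.0199% to 0.0202% in WT. Of the classical particles looked for by name, Snord13 (U13) had a value in WT 4 alone, at 1.68 FPKM, and the 5 rows of small Cajal body RNAs averaged 0.295 to 1.15 FPKM.

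The protein genes of the snoRNA particles were expressed in both groups. Of 31 tested, 0 passed in limma (17 higher and 14 lower, median log2 fold change 0.01), nor did any in voom. In limma 2 of the 31 had an unadjusted p under 0.05, against 17.6% of all genes tested, of which 0.334% were called. The list held 32 genes. The 4 core proteins of C/D particles, Fbl, Nop56, Nop58 and Snu13, all had fold changes below 0, from -0.07 to -0.0030. Fibrillarin (Fbl), the methyltransferase, had 16.04, 17.06 and 17.3 FPKM in KO and 16.95, 17.95 and 18.2 FPKM in WT. The 4 core proteins of H/ACA particles, Dkc1, Gar1, Nhp2 and Nop10, all had fold changes above 0, from 0.03 to 0.15. Dyskerin (Dkc1), the pseudouridine synthase, had 9.13, 9.49 and 10.2 FPKM in KO and 9.30, 8.75 and 9.29 FPKM in WT. All 8 overlapped between the groups.

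The 3 particle genes with the highest level were Nop10, Nhp2 and Imp3. Nop10, a small H/ACA core protein, had 36.5, 33.9 and 35.7 FPKM in KO and 33.0, 34.2 and 36.7 FPKM in WT. Nhp2, which binds H/ACA RNA, had 33.6, 32.2 and 35.7 FPKM in KO and 30.2, 32.1 and 34.1 FPKM in WT. Imp3, a protein of the U3 particle, had 30.3, 31.7 and 33.2 FPKM in KO and 29.5, 29.1 and 30.6 FPKM in WT. The lowest adjusted p of the list was 0.128 in limma, for Znhit6, a C/D assembly factor, at 14.1, 12.7 and 14.9 FPKM in KO and 11.7, 11.3 and 11.2 FPKM in WT. Its KO values all lay above its WT values (log2 fold change 0.26, SE 0.0621), as did those of Xrn2, an exonuclease that trims snoRNA ends (17.9, 17.9 and 19.6 FPKM in KO and 16.1, 17.1 and 16.2 FPKM in WT). Groups did not overlap in 4 of the 31 genes, against 24.8% of all genes tested, and 2 of these were lower in KO. Tcof1, the nucleolar protein treacle, had 11.7, 11.6 and 12.1 FPKM in KO and 12.9, 12.8 and 12.4 FPKM in WT. Exosc10, the nuclear exosome ribonuclease, had 20.9, 22.03 and 22.96 FPKM in KO and 23.2, 23.6 and 25.7 FPKM in WT.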

How the data were processed

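RNA of 6 cochlea libraries (3 KO, 3 WT) was measured. The authors deposited 1 table of FPKM values with gene names, biotypes and positions. Libraries came from total RNA with the VAHTS Universal V6 kit, per the labels' protocols, and the build was GRCm38, per the submitters' processing notes. The sources used here do not name the aligner, the counter or the use of strand.

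Fragments were recovered as FPKM × exon length (GENCODE M21) × library total, with totals of 15170973 (KO 5) to 17192293 (WT 4). They came out whole, within 0.01 fragments plus a relative 1e-06, in all libraries for 98.3% of genes and for all 67 snoRNA genes. Hosts were rows containing a snoRNA gene on its strand.

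The test was limma 3.58.1 (R 4.3.3, eBayes with trend) on log2(FPKM + 1), a scale that understates changes of low genes, over 14072 genes reaching FPKM 1 in 3 or more libraries. Adjustment was Benjamini-Hochberg with threshold 0.05, two-sided. The procedure was also run on simulated data. Only genes with more fragments than any of the 67 held on average were changed there. It therefore did not measure whether a changed snoRNA gene would be found. Members and lists were chosen with earlier results of these data known. Named were the 12 genes highest in FPKM, the 12 with most fragments, the 5 highest and 5 lowest in fold change with a mean of at least 10 fragments, genes of hosts with 3 or more members, genes beside the threshold, classical particles by name and, for hosts and particle proteins, the 3 with the highest mean. One host with its snoRNA genes is not reported here. Others are said to have been chosen after their values were seen, or were named for a low p or separate groups. Alternatives were another pseudocount, filter, scaling or variance model, voom on fragments, leaving out each library and a replicate block.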

Additional observations from a re-analysis of the deposited data

How the results depend on the processing

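The count of snoRNA genes called was 0 under every alternative but one, ranging from 0 to 1 when single libraries were left out. The counts for hosts and for particle proteins were 0 under all alternatives. Over all genes tested, where 47 were called, the count was 19 with no filter, 103 at an FPKM of at least 5, 19 without a trend and 390 with voom, and 12 to 105 when any one of the 6 libraries was left out (105 without KO 5). Labels give replicates 4 and 5 in both groups. Their deviations correlated at 0.141 and 0.150, above all KO and WT pairs with unlike numbers, which ran from -0.125 to 0.110. With only 2 such pairs of like number, the labels were not taken as pairing. The replicate block leaves KO 2 and WT 3 without a partner, so its fold changes rest on replicates 4 and 5 alone. With this block 22 genes were called in all, 0 of them snoRNA genes, and the median log2 fold change of the snoRNA genes was 0.15 (main 0.04). Leaving out single libraries, that median ran from 0.01 to 0.12. The summed level, KO minus WT, ran from 6.10 to 25.8 FPKM, that of C/D genes from 22.5 to 31.4 and that of ACA genes from -18.2 to -6.75. With at least 10 fragments in 3 libraries the C/D difference was 19.7 FPKM (main 27.5) and the ACA difference -7.49 FPKM (main -12.6), and at an FPKM of at least 5 the ACA difference was -5.36 FPKM. In alternatives chosen after seeing the data, the C/D difference without Snord104 was 15.9 FPKM, and without the 3 genes that passed through one group alone the ACA difference was -11.7 FPKM and that of all snoRNA genes 16.7 FPKM.

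Of 338 values of 22 snoRNA genes under the alternatives, 315 kept their direction and side of the threshold, 22 changed sign and Gm25612 passed once. With the replicate block log2 fold changes turned to 0.33 for AF357399, 0.0027 for Gm23201, 0.23 for Gm25632, 0.046 for Snora31, -0.22 for Snord123 and 0.20 for Snord58b. When single libraries were left out, log2 fold changes ran from -0.18 to 0.27 for AF357399, -0.21 to 0.085 for Gm23201, -0.27 to 0.27 for Gm23301, -0.41 to 0.12 for Gm25632, -0.66 to 0.26 for Gm26202, -0.78 to 0.066 for Rnu73b, -0.23 to 0.21 for Snora17, -0.25 to 0.66 for Snord123 and -0.30 to 0.056 for Snord58b. The cause was not tested.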
